A study of Homo sapiens with 8 samples.

Results

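Cells that signal through RAS and the kinase ERK also make proteins that switch this signal off again. The 10 such genes examined here were measured in Hodgkin lymphoma cells with or without a sponge, a transcript made to capture the microRNA miR-155. They were the Spred genes SPRED1 and SPRED2, the Sprouty genes SPRY1, SPRY2 and SPRY4, the phosphatase genes DUSP4, DUSP5 and DUSP6, and the RAS GTPase-activating protein (RasGAP) genes NF1 and RASA1. All array probes whose transcript accession belongs to one of these genes were taken, which gave 14 of 41000 probes on the array for these 10 of 16557 genes that could be matched to a probe. Of these, 7 probes for 7 genes were retained, against 17912 retained probes in all. A probe was retained if its signal was well above background in at least 4 of 8 measured channels and if its 2 labellings of each sample lay within 2-fold.

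The cells were KM-H2, an established line from a Hodgkin lymphoma. One population carried the empty retroviral vector pMSCV-PIG (EV) and the other carried the same vector with the sponge, whose transcript offers binding sites that capture miR-155 (sponge cells, miR-155-sp). Both populations were thus transduced and then sorted for the GFP of the vector. Each is a single transduced population, and no untransduced cells are analysed here. The study proposes that the sponge did not take up all miR-155 in this line, where its level is very high. From each population the RNA of the whole cell lysate (total, T) and the RNA held by Argonaute 2 and precipitated with an antibody to it (Ago2-IP, IP) were measured. Each of the 4 RNA samples was labelled once with Cy3 and once with Cy5 and set against its partner of the same population on 4 two-color arrays. Both labellings come from 1 RNA, so there was 1 sample per group, no p-value was computed and no difference below has a check across samples. The 2 labellings, and the 2 dye orientations they form (named by the dye of the IP, the total RNA having the other dye), show technical spread only.

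Growth factor and antigen receptors load RAS with GTP, and RAS then drives the kinases RAF, MEK and ERK. Many feedback genes are themselves transcribed when ERK is active. Spred and Sprouty proteins act between the receptor and RAF, DUSP phosphatases remove the activating phosphates from ERK and related kinases, and NF1 and RASA1 return RAS to its inactive, GDP-bound form. Spred proteins bring NF1 to the membrane. An mRNA that carries a matching site is held by a miRNA in the Ago2 complex, which is read here as the ratio of its signal in the IP to that in total RNA (IP/T). The IP/T is a ratio of normalized signals and gives no amount of bound RNA.

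The sponge's target miRNA is shown because its seed (bases 2 to 8, in capitals) sets which transcripts it can pair with. RefSeq places this 24-base mature form at chr21:25573983-25574006 on the + strand of GRCh38.p14:
hsa-miR-155-5p: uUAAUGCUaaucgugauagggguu
A full seed match in a transcript, with an A opposite the first base, reads AGCATTAA. Whether transcripts of the 10 genes carry it was not examined, and no ratio below tells which miRNA holds a transcript.

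Of the gene spots 58.9% to 61.9% passed the scanner's test for signal well above background in the Cy3 channels and 38.8% to 43.4% in the Cy5 channels, and 0 were saturated. With 4 arrays, precision is limited by their number. The cells were checked against markers. Of 12 probes for Hodgkin lymphoma cell markers, 11 were retained and well above background in all 8 channels, among them TNFRSF8, the gene of CD30. The exception was CCL22, which was well above background in 0 channels. Of 7 B-lineage probes CD79A alone was retained, and CD22, CD79B and PAX5 were well above background in 0 channels. Single retained probes were also found for the T cell genes CD2 and CD3E, the myeloid genes CD14 and CSF1R and the epithelial genes CDH1 and KRT8. Their part in the results was not tested.

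Most of the feedback genes were dim. Among the 56 Cy3 signals of the 14 probes 48 were well above background, whereas among the 56 Cy5 signals 16 were. All 8 channels were well above background only on the probes of SPRY2, DUSP4 and DUSP5. The retained probes of SPRED2, SPRY1 and DUSP6 were so in the 4 Cy3 channels and in no Cy5 channel, and that of SPRED1 in 3 Cy3 channels and 1 Cy5 channel. For these 4 genes the mean over both labellings therefore rests in part on signals near background, and values of the Cy3 labellings alone are given beside it.

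**Figure D1:**
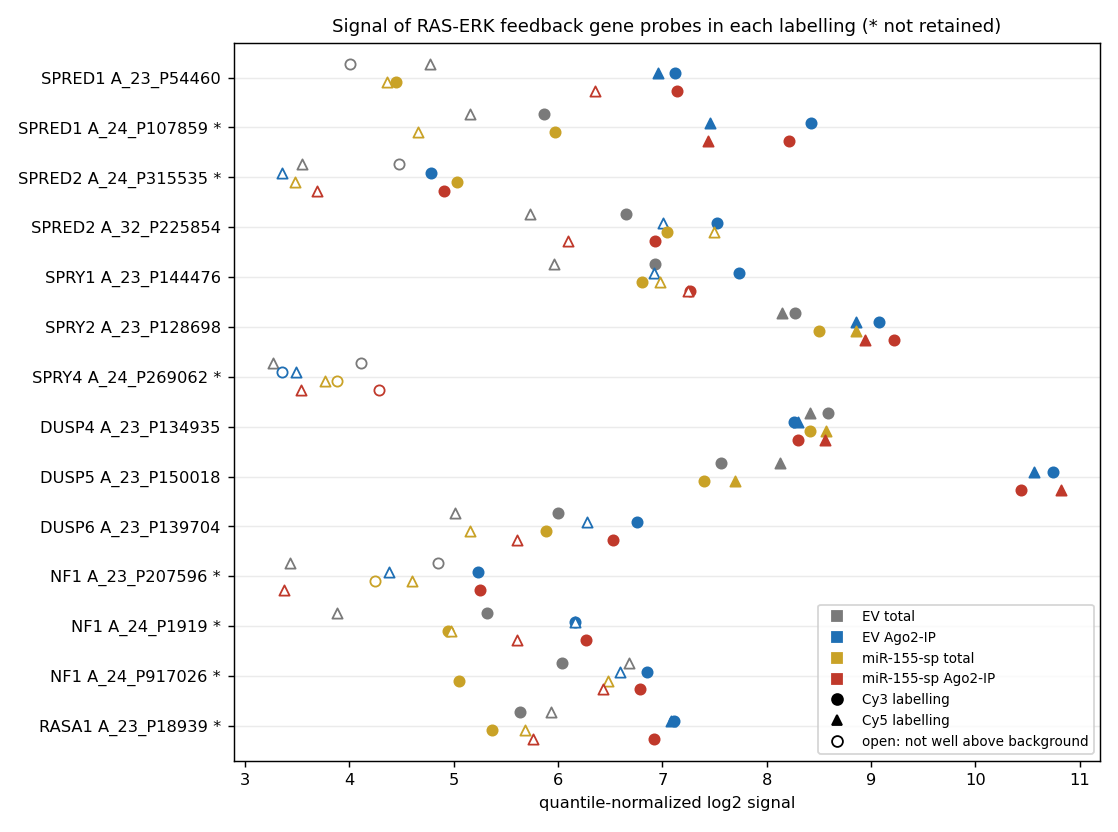
Log2 normalized signal (x axis) of each of the 14 probes (y axis) in the 8 labellings, with the group by color, Cy3 as circles and Cy5 as triangles, open where not well above background and an asterisk where the probe was not retained. SPRY2, DUSP4 and DUSP5 are filled throughout, and the IP signals of DUSP5 (10.44 to 10.82) stand far to the right of its total signals (7.40 to 8.13).

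SPRED1 was among the members with high IP/T, and both of its probes showed this. On probe A_23_P54460 the log2 signal in EV total RNA was 4.01 (Cy3) and 4.77 (Cy5), neither well above background, and in EV IP RNA it was 7.12 and 6.96. In sponge cells the total signals were 4.44 and 4.36 and the IP signals 7.14 and 6.35. All IP signals thus lay above all total signals, in both populations. The EV ratio was at least 3.71, as the total signal has only an upper bound there, and as measured it was 6.28. In sponge cells it was 5.08 (3.75 with the IP in Cy5, 6.89 with it in Cy3), with the Cy5 signals not well above background. In the Cy3 labellings alone the measured ratios were 8.65 and 6.48, the former again over a total signal not well above background.

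The second SPRED1 probe, A_24_P107859, was brighter but its labellings of miR-155-sp total RNA differed 2.49-fold, so it was not retained. Its total signals were 5.86 and 5.16 in EV cells and 5.97 and 4.65 in sponge cells, the Cy5 values being not well above background. Its IP signals, all well above background, were 8.43 and 7.46 in EV cells and 8.22 and 7.43 in sponge cells. Its IP/T was 5.39 in EV and 5.71 in sponge cells, and in the Cy3 labellings alone it was 5.90 and 4.74. The 2 probes thus gave similar ratios in EV cells.

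No change of SPRED1 with the sponge could be set beyond the technical spread. On the retained probe the change has no determined size, as the EV ratio is a bound. The measured log2 change of IP/T (sponge cells minus EV cells) was −0.31, but −1.05 in one dye orientation and 0.43 in the other, and −0.42 in the Cy3 labellings alone. On the second probe the change was 0.08, with −0.13 and 0.30. On both probes the sign turned between the orientations.

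SPRED2 was the member with the largest change. Its retained probe is not among the filtered values that the authors deposited. On the retained probe A_32_P225854 the log2 signal was 6.65 (Cy3) and 5.73 (Cy5) in EV total RNA, and 7.52 and 7.0 in EV IP RNA. In sponge cells the total signals were 7.04 and 7.49, and the IP signals 6.93 and 6.10. IP thus stood above total in EV cells and below it in sponge cells, in both labellings. The ratio IP/T was 2.11 in EV cells (1.28 and 3.47 by orientation) and 0.595 in sponge cells (0.521 and 0.679).

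The log2 change of IP/T on this SPRED2 probe was −1.82, with −1.29 and −2.35 in the single orientations. Of all retained probes 0.0223% had a change this low or lower. Both fractions took part, as the total signal was higher in sponge cells by 1.08 (0.39 in Cy3 and 1.76 in Cy5) and the IP signal lower, with a change of −0.75 (−0.59 and −0.90). In the Cy3 labellings, the only ones well above background, the ratio was 1.83 in EV cells and 0.928 in sponge cells, a change of −0.98, which is just short of 2-fold. The Cy5 labellings alone gave −2.67. With normexp background correction, which adds an offset to all signals and draws ratios of dim probes toward 1, the change was −0.19 (followed by loess and Aquantile) or −0.24 (followed by quantile normalization), and the IP/T in sponge cells was then slightly above 1, at log2 values of 0.039 and 0.040.

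A second SPRED2 probe, A_24_P315535, was too dim to compare the populations. It was well above background in 3 channels and was not retained, with labellings up to 2.92-fold apart. Its Cy3 signals were 4.47 in EV total, 4.78 in EV IP, 5.03 in miR-155-sp total and 4.91 in miR-155-sp IP RNA, and its Cy5 signals lay between 3.35 and 3.69. Neither labelling of EV total RNA was well above background, so no ratio is given there, and the IP/T in sponge cells was 1.03. In Cy3 both SPRED2 probes had a higher total signal in sponge cells, by 0.39 and 0.56, although the EV total signal of the second was near background.

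The Sprouty gene measured best was SPRY2. On probe A_23_P128698, well above background throughout, the log2 signals were 8.27 and 8.15 in EV total, 9.08 and 8.86 in EV IP, 8.5 and 8.85 in miR-155-sp total and 9.22 and 8.95 in miR-155-sp IP RNA. The IP signal was above the total signal in every labelling, and the ratio IP/T was 1.69 in EV cells (1.5 and 1.90) and 1.32 in sponge cells (1.36 and 1.29), below 2 in both. The log2 change was −0.35, with −0.14 and −0.56 by orientation. It lay in total RNA, which was higher in sponge cells by 0.47 (0.23 in Cy3 and 0.71 in Cy5), while the IP signal differed by 0.12. The Cy3 labellings alone gave a change of IP/T of −0.09.

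SPRY1 was dimmer and its labellings disagreed. On probe A_23_P144476 the Cy3 signals were 6.93 in EV total, 7.73 in EV IP, 6.80 in miR-155-sp total and 7.26 in miR-155-sp IP RNA. The Cy5 signals, none well above background, were 5.96, 6.92, 6.98 and 7.25 in the same order. IP was above total in both populations and both labellings, with an IP/T ratio of 1.84 in EV cells (0.994 and 3.42 by orientation) and 1.29 in sponge cells (1.36 and 1.22). The log2 change was −0.52, but its sign turned between the orientations, with 0.46 and −1.49. In the Cy3 labellings alone the IP/T was 1.74 in EV and 1.38 in sponge cells, a change of −0.34.

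SPRY4 was not measurable. Its probe A_24_P269062 was well above background in 0 channels, with log2 signals between 3.27 and 4.29. No ratio is given for it.

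DUSP5, a nuclear phosphatase of ERK, was strongly enriched in the IP, and of the probes well above background in all channels it had the highest IP/T among the members. On probe A_23_P150018, well above background in all channels, the log2 signal was 7.56 and 8.13 in EV total and 10.74 and 10.56 in EV IP RNA. In sponge cells the total signals were 7.40 and 7.70 and the IP signals 10.44 and 10.82. The lowest IP signal was thus far above the highest total signal. The ratio IP/T was 6.99 in EV cells (7.98 with the IP in Cy5, 6.12 with it in Cy3) and 8.49 in sponge cells (10.8 and 6.70). Of all retained probes 2.58% in EV cells and 2.20% in sponge cells had an IP/T this high or higher.

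DUSP5 was thus enriched in sponge cells as well. Its log2 change of IP/T was 0.28 (0.43 and 0.13 by orientation), while the Cy3 labellings alone gave −0.13 and the Cy5 labellings alone 0.70. The total signal of DUSP5 was lower in sponge cells in both labellings, with changes of −0.17 and −0.43. The IP signal differed by −0.30 in Cy3 and by 0.26 in Cy5. Under 14 processing settings, the reported one included, the log2 IP/T of DUSP5 was between 1.86 and 3.18 in EV cells and between 1.73 and 3.43 in sponge cells, above 2-fold in all of them. Those that only changed a filter left its value as it was, so these are not 14 separate checks.

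DUSP6, a cytoplasmic phosphatase with a preference for ERK, was dimmer. On probe A_23_P139704 the Cy3 signals were 6.0 in EV total, 6.76 in EV IP, 5.88 in miR-155-sp total and 6.53 in miR-155-sp IP RNA. The Cy5 signals, not well above background, were 5.01, 6.28, 5.16 and 5.60. IP was above total in each labelling of both populations. The ratio IP/T was 2.02 in EV cells (1.21 and 3.36), just past 2, and 1.46 in sponge cells (0.823 and 2.58), and in the Cy3 labellings alone it was 1.70 and 1.56.

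The log2 change of DUSP6 was −0.47, with −0.56 and −0.38 by orientation, and −0.12 in the Cy3 labellings alone. Over both labellings it lay in the IP fraction, where the change was −0.45 (−0.23 in Cy3 and −0.67 in Cy5). Total RNA differed by 0.02 (−0.11 in Cy3 and 0.15 in Cy5). Averaged over both labellings, SPRY2 and DUSP6 thus had changes of like size in different fractions. In Cy3, the only labelling well above background for DUSP6, their changes of IP/T were −0.09 and −0.12. Neither reached 2-fold.

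DUSP4, another nuclear phosphatase, was not enriched in the IP. On probe A_23_P134935, well above background in all channels, the log2 signals were 8.59 and 8.42 in EV total, 8.26 and 8.30 in EV IP, 8.42 and 8.57 in miR-155-sp total and 8.30 and 8.56 in miR-155-sp IP RNA. IP and total differed little, and the ratio IP/T was 0.857 in EV cells (0.819 and 0.896) and 0.956 in sponge cells (1.1 and 0.829). The log2 change of 0.16 was 0.43 in one orientation and −0.11 in the other. DUSP4 and DUSP5, measured at comparable precision, thus differed widely in IP/T in both populations.

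**Figure D2:**
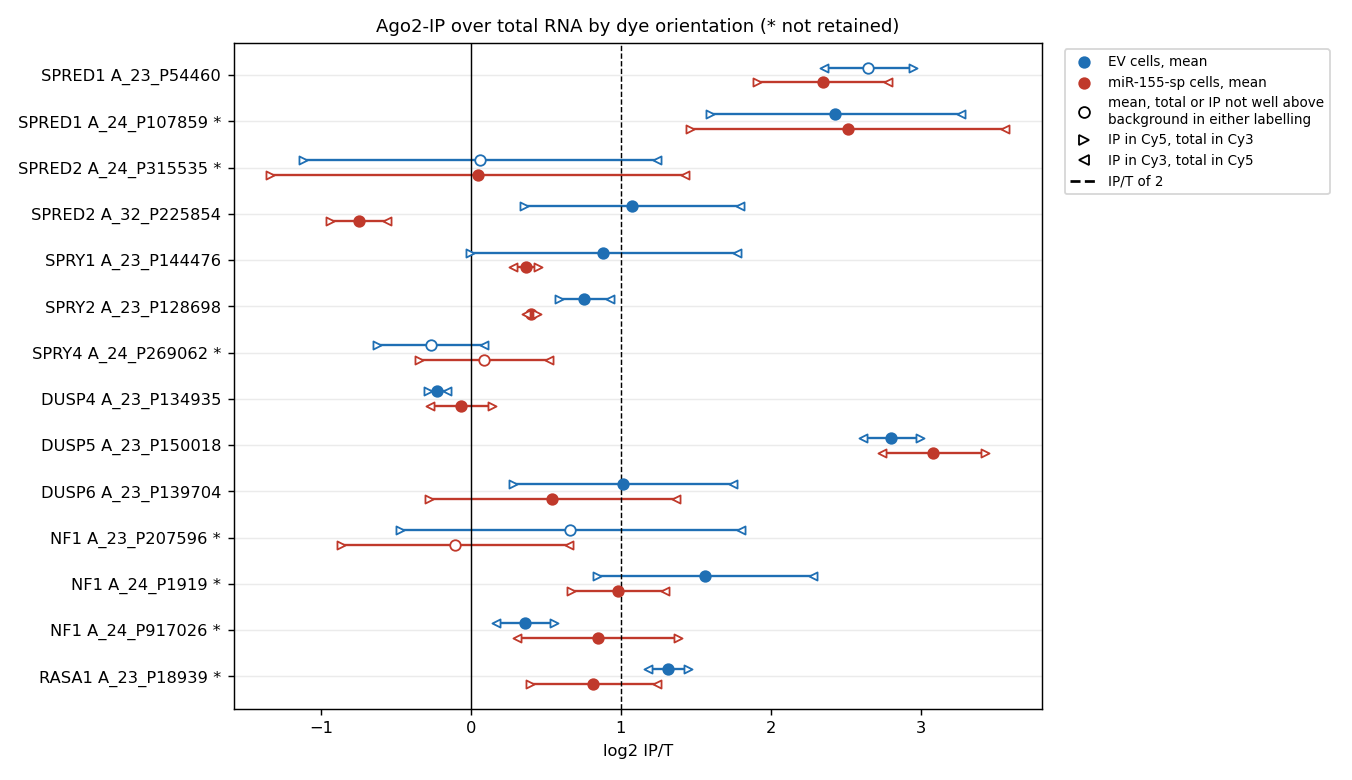
Log2 IP/T (x axis) of the 14 probes (y axis) in EV (blue) and sponge cells (red), with the mean as a dot, the 2 dye orientations as arrowheads and an IP/T of 2 as the dashed line. Open dots mark ratios where neither labelling of total or of IP RNA was well above background, and an asterisk marks probes not retained. Both SPRED1 probes and DUSP5 lie past the line in both populations, and the retained SPRED2 probe lies on opposite sides of 0.

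None of the RasGAP probes was retained, as their labellings lay more than 2-fold apart in at least 1 sample. RASA1 was the clearest, on probe A_23_P18939. Its Cy3 signals were 5.64 in EV total, 7.11 in EV IP, 5.37 in miR-155-sp total and 6.92 in miR-155-sp IP RNA, all well above background. Its Cy5 signals were 5.93, 7.09, 5.68 and 5.76, with the EV IP signal alone well above background. The labellings of miR-155-sp IP RNA were 2.23-fold apart. The ratio IP/T was 2.49 in EV cells (2.73 and 2.27) and 1.76 in sponge cells (1.31 and 2.36), yet in the Cy3 labellings alone it was 2.77 and 2.93. The change of −0.50 therefore lay in the Cy5 labellings (−1.08), and was 0.08 in Cy3.

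NF1 was covered by 3 probes, of which 2 gave a ratio in both populations. On both of these no Cy5 signal was well above background. Probe A_24_P1919 had Cy3 signals of 5.32 in EV total, 6.17 in EV IP, 4.94 in miR-155-sp total and 6.27 in miR-155-sp IP RNA. Over both labellings its IP/T ratio was 2.95 in EV cells (1.79 and 4.86 by orientation) and 1.98 in sponge cells (1.59 and 2.46). In the Cy3 labellings alone it was 1.797 in EV cells, below 2, and 2.514 in sponge cells, so the order of the populations was reversed. Probe A_24_P917026 had Cy3 signals of 6.04, 6.85, 5.05 and 6.79 and an IP/T of 1.28 and 1.8 over both labellings. Its Cy3 labellings alone gave 1.75 in EV and 3.34 in sponge cells. Both probes had IP above total in Cy3 in both populations. Their log2 changes were −0.58 and 0.48 over both labellings, and 0.48 and 0.93 in the Cy3 labellings alone. In Cy3 the total signal was lower in sponge cells on both probes, with changes of −0.38 and −0.99. The third, A_23_P207596, was well above background in the IP channels of Cy3 only, at 5.23 in EV and 5.25 in sponge cells, and no ratio is given for it.

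Taking the retained members as a group, 4 of 7 probes (SPRED1, SPRED2, DUSP5 and DUSP6) had an IP/T ratio of 2 or more in EV cells, beside 14.8% of all retained probes. In sponge cells 2 of 7 (SPRED1 and DUSP5) did so, beside 15.6%. These were also the 2 that reached 2 in both orientations, which 12.3% of all retained probes did in EV cells and 12.9% in sponge cells. None of the 7 had an IP/T of 0.5 or less, beside 12.9% in EV cells and 14.1% in sponge cells. SPRED2 and DUSP6 lay just past the threshold in EV cells, and SPRY1 (1.84) and SPRY2 (1.69) just short of it. The median log2 IP/T of the 7 was 1.01 in EV cells (0.35 with the IP in Cy5, 1.77 with it in Cy3) and 0.40 in sponge cells, beside −0.24 and −0.26 over all retained probes. In EV cells the orientations thus lay further apart than the 2 populations did. With the normexp correction the EV median was 0.23 or 0.28.

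With the sponge, the measured IP/T was lower for 5 of 7 members, the undetermined SPRED1 included, beside 50.3% of all retained probes. It was lower in both dye orientations for 3 (SPRED2, SPRY2 and DUSP6), beside 30.3%, and higher in both for 1 (DUSP5), beside 30.6%. Compared by labelling instead, 5 of 7 were lower in Cy3 and in Cy5, beside 28.7%. Of the 7, SPRED2 alone had an IP/T that was lower by 2-fold or more, beside 0.698%, and a 2-fold higher one for 0, beside 0.748%. SPRED2 was also the only one enriched in EV cells and 2-fold lower in sponge cells, beside 0.145%, and the only one with an IP/T above 1 in both orientations of EV cells and below 1 in both of sponge cells, beside 0.949%.

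The background for SPRED2 is higher among probes as dim as its own. Of the 1178 retained probes well above background in exactly 4 channels, 5.09% had an IP/T lower by 2-fold or more in sponge cells, 4.92% a 2-fold higher one, and 0.849% were both enriched in EV cells and 2-fold lower. A switch from above to below 1 in both orientations was found for 2.89% of them. Among the 13432 probes well above background in all 8 channels 0.0223% were 2-fold lower. The 2 orientations differed in their log2 change by a median of 0.66 among the 4-channel probes and of 0.20 among the 8-channel probes. The retained probes of SPRED1, SPRED2, SPRY1 and DUSP6 belong to the first class, and those of SPRY2, DUSP4 and DUSP5 to the second. The median log2 change of the 7 members was −0.35 (−0.14 and −0.38 by orientation), beside −0.0025 over all retained probes and −0.043 over the 4-channel probes.

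Total RNA was at least 2-fold higher in sponge cells for SPRED2, beside 0.0893% of all retained probes and 0.764% of those with 4 channels, and 2-fold lower for 0 members, beside 0.274%. It was higher in both labellings for SPRED2 and SPRY2, beside 32.4%, and lower in both for DUSP5, beside 32.9%. The IP signal was lower in both labellings for SPRED2 and DUSP6, beside 32.6%. For SPRED1, SPRY1, DUSP4 and DUSP6 the change of total RNA had opposite signs in the 2 labellings. In bulk RNA, fewer cells with a transcript and less of it per cell cannot be told apart. The median change of total RNA over the members was 0.017 on the log2 scale.

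**Figure D3:**
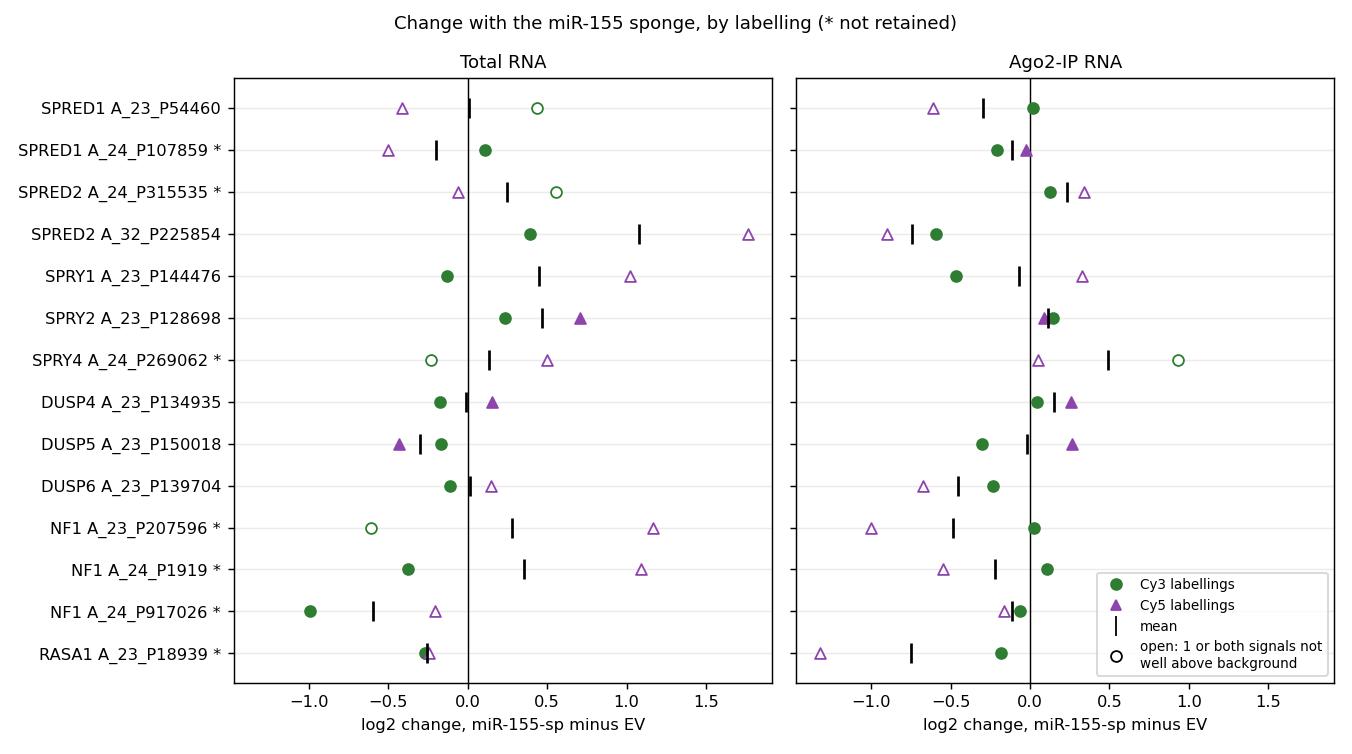
Log2 change with the sponge (miR-155-sp minus EV, x axis) of the total signal (left) and the IP signal (right) of the 14 probes, with Cy3 labellings in green, Cy5 labellings in purple and their mean as a bar, and open symbols where 1 or both signals were not well above background. The retained SPRED2 probe is above 0 on the left and below 0 on the right in both labellings, while most other probes have labellings on both sides of 0 or close to it.

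How far these values rest on the processing is shown per probe. The change of SPRED2 was below 0 in 11 of 11 settings that kept the probe, and 2-fold or more in 8 of them. It fell short of 2-fold in the Cy3 labellings alone and in both normexp settings. That of SPRY2 was below 0 in 14 of 14 (−0.62 to −0.09) and that of DUSP6 in 10 of 10 (−0.82 to −0.12). For SPRED1 (−1.05 to 0.43), SPRY1 (−1.49 to 0.46), DUSP4 (−0.11 to 0.43) and DUSP5 (−0.15 to 0.70) the sign depended on the setting. The settings share their data and do not stand for repeats, and some only change a filter, which leaves a kept value as it is. The log2 IP/T of SPRED1 in EV cells, which rests on a total signal not well above background, was measured at 1 or more in 9 of 11 settings and at 0.32 and 0.53 with the normexp correction.

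**Figure D4:**
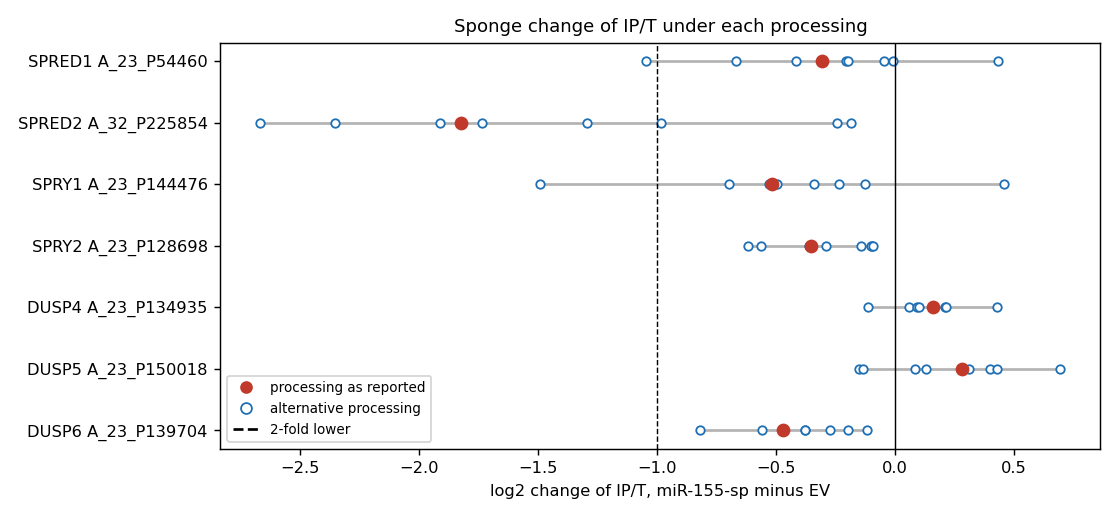
Log2 difference in IP/T between sponge and EV cells (x axis) of the retained member probes (y axis) as reported (red) and under each alternative processing (open blue), with a 2-fold lower ratio as the dashed line. SPRED2 spans −2.67 to −0.19, and SPRY2 and DUSP6 stay between −0.82 and −0.09.

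The feedback genes were set beside other genes of the RAS-ERK pathway from a list of 65 genes. Of these, 61 had a probe (105 probes), and 67 probes of 46 genes were retained, so that some probes share a transcript. An IP/T ratio of 2 or more was found for 22 of 67 probes (32.8%) in EV cells and 25 (37.3%) in sponge cells, beside 14.8% and 15.6% of all retained probes. Of the 67 probes 0 had a 2-fold change of IP/T in either direction, 20 were lower and 24 higher in both orientations, and the log2 change ranged from −0.84 to 0.81 with a median of 0.05. The sets differ in detection, with 45 of these 67 probes but 3 of the 7 retained members well above background in all 8 channels, so the single 2-fold change among the members, that of SPRED2, was not set against them.

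The list of other negative regulators, whose phosphatases were not sorted by the kinase they act on, had the highest IP/T by median. Of 14 retained probes 8 reached 2 in EV cells and 9 in sponge cells, with median log2 values of 1.35 and 1.22. DUSP2, an inducible nuclear phosphatase of lymphoid cells, led the bright probes (those well above background in all 8 channels) with an IP/T ratio of 12.6 in EV cells (15.5 and 10.3) and 13.7 in sponge cells on A_24_P37409, and 8.66 and 8.99 on A_23_P108842. The lowest bright probe was that of DUSP9, another phosphatase of the family, with 0.584 and 0.583, and it was not retained. RASA4, a RasGAP with a near-identical copy in the genome that the probe may not tell apart, had 0.591 and 0.836 on A_24_P943263. Another RasGAP of the list, RASA2, had 13.9 and 13.5 on the retained probe A_23_P91964, which was well above background in 6 channels only.

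Of the 8 retained probes for kinases activated by ERK, 4 reached 2 in each population. MKNK2, a kinase of the translation factor eIF4E, had 11 and 10.0 on A_23_P142310, but 5.37 and 4.29 on A_24_P929754 and 3.39 and 3.50 on A_23_P142304, all bright. The lowest bright probe was that of RPS6KA1, a ribosomal S6 kinase, with 1.31 and 1.19. The retained MKNK1 probe, well above background in 7 channels, was lower, with 0.761 and 0.574. Of the 8 probes for transcription factors and targets that respond to ERK, 3 reached 2 in each population. FOSL1, a component of AP-1 and like DUSP6 a gene that ERK induces, had 9.73 and 10.71 on A_23_P161624 and 5.92 and 7.89 on A_23_P322519, and CIC, a repressor that ERK inactivates, 1.46 and 1.42.

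The lists upstream of ERK, kinases included, had median log2 values between −0.09 and 0.22 in EV cells, nearer to that of all retained probes (−0.24). Of the 12 probes for kinases and scaffolds 2 reached 2 in EV cells and 3 in sponge cells. MAP2K2, the gene of MEK2, had 0.439 and 0.473, the lowest among the bright probes of this list in EV cells. Of the 7 probes for RAS GTPases 2 reached 2 in each population, with HRAS lowest among bright probes at 0.399 and 0.419. Of the 15 adaptor probes 3 and 4 did so, with CRK highest among bright probes at 1.87 and 1.98 and GAB2 lowest at 0.434 and 0.480. Of the 3 probes for exchange factors 0 did so, with RASGRP1, which loads RAS with GTP in lymphocytes, at 1.06 and 1.85 on A_23_P124642 and RASGRP4 at 0.679 and 0.729. The other retained RASGRP1 probe, A_23_P113258, went the other way, with 1.34 and 0.838.

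**Figure D5:**
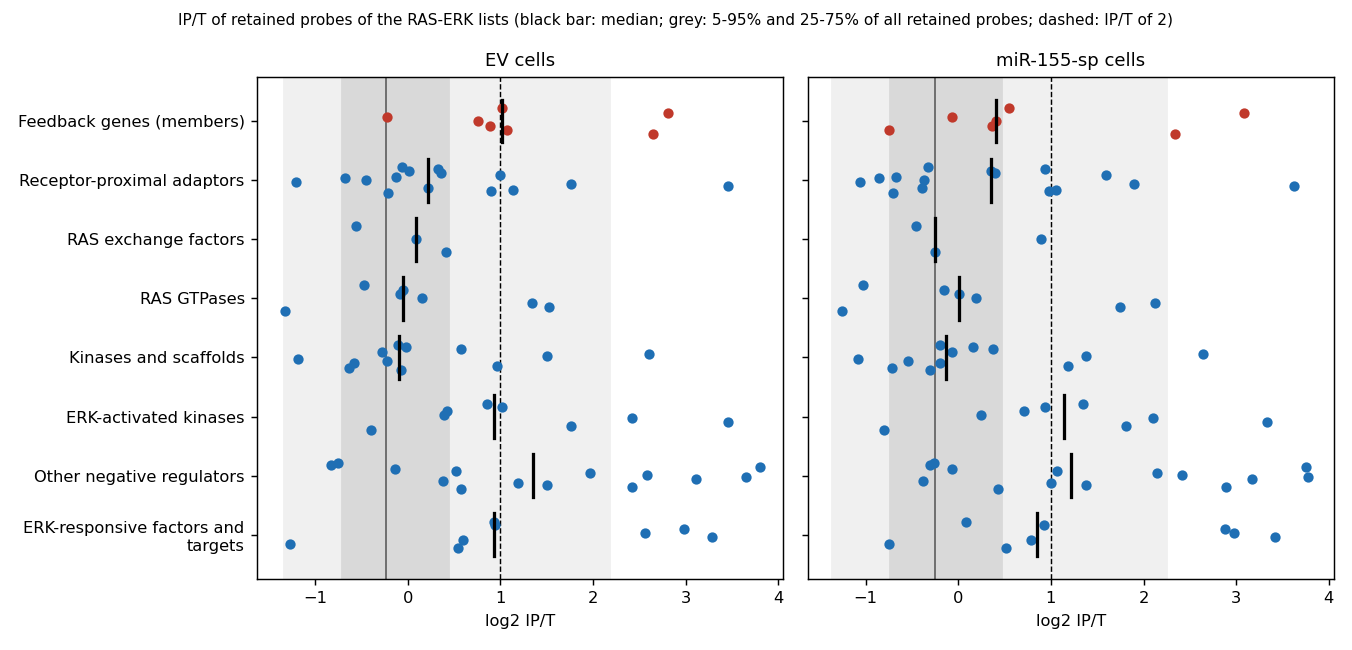
Log2 IP/T in EV and sponge cells (x axis) of retained probes in the feedback genes and in each pathway list (y axis), with a bar for the list's median and grey bands for the middle of all retained probes. The medians of the feedback genes (1.01), the other negative regulators (1.35), the ERK-activated kinases and the ERK-responsive genes (both 0.93) in EV cells lie above that of all retained probes (−0.24), and the exchange factors and RAS GTPases lie near 0.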

How the data were processed

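Total and Ago2-IP RNA of KM-H2 EV and miR-155-sp cells had been hybridized to two-color Agilent arrays. Spot intensity values, background-subtracted and dye-normalized, were deposited as the authors had extracted them (Agilent Feature Extraction, 10.7.3.1 per the file headers, 10.5.1.1 per the submitters' processing notes). The authors also deposited filtered, quantile-normalized log2 values for 16065 probes.

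Processing followed the steps of the study's methods, but 17912 probes were retained here where the authors deposited 16065. Of the retained members the deposited values hold SPRY2, DUSP4 and DUSP5 only. Outlier and control spots were left out, log2 signals of the 8 channels were quantile-normalized, and probes well above background in at least 4 channels with labellings within 2-fold were retained. Labellings were averaged, IP was divided by total, and a fold of 2 was called. Replicate 1 was the Cy3 and replicate 2 the Cy5 labelling of 1 RNA, so no test was run. Where no labelling of a sample was well above background, a ratio is given as a bound beside the measured value, using the lowest detected signal per channel, or left out where the bound was under 1. The dyes' own bias can enter such a bound.

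Probes were named by accession through RefSeq (GRCh38.p14), which matched 23958 of 41000 probes. The arrays were designed on another build, so gene coordinates are not given. The genes, pathway lists, named genes (per list the highest and lowest IP/T in EV cells among probes well above background in 8 channels) and alternatives were chosen with earlier results of these data known. RASA4, RASA2 and MKNK1 were named after their values were seen. Some genes that the rule names are not reported here.

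The alternatives were a common median, normexp (offset 50; limma 3.58.1, R 4.3.3) with loess and Aquantile or quantile normalization, the deposited values, other filters, linear averaging, single labellings, single orientations and gene means. Other steps used Python 3.11.15, numpy 2.4.6, pandas 2.3.3 and matplotlib 3.10.9, and were tested on simulated data.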

Additional observations from a re-analysis of the deposited data

Results flagged for a closer look

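The retained SPRED2 probe is listed because its IP/T stood above 1 in both dye orientations of EV cells and below 1 in both of sponge cells, a log2 change of −1.82. The difference was not tested, as there is 1 sample per group. Each orientation includes Cy5 signals, none of which was well above background on this probe. In the Cy3 labellings alone the IP/T was 1.83 in EV and 0.928 in sponge cells. With the normexp correction it was slightly above 1 in sponge cells, at log2 values of 0.039 and 0.040. Of all retained probes 0.949% switched sides in this way, and 2.89% of those well above background in exactly 4 channels.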

How the results depend on the processing

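No paired analysis was possible because the labels' replicate numbers name the 2 dye labellings of 1 RNA per group, and no test was run. The reported processing gave 4 members with an IP/T ratio of 2 or more in EV cells and 2 in sponge cells, a median log2 IP/T of 0.40 in sponge cells and a median change of −0.35. With normexp these were 1, 1, 0.16 and −0.13 (loess and Aquantile) or 1, 1, 0.30 and −0.056 (quantile normalization), over 11 member probes, and the median in EV cells was 0.23 or 0.28 in place of 1.01. The deposited values, detection in all 8 channels and a 1.5-fold limit between labellings each kept 3 members (SPRY2, DUSP4 and DUSP5), of which 1 and 1 reached 2, with a median change of 0.16. Without the limit between labellings 7 of 11 probes reached 2 in EV cells, with a median of 0.82 in sponge cells. With IP in Cy5 alone 2 reached 2 in EV cells and the change was −0.14. A common median moved the median change of total RNA from 0.017 to 0.37, but it kept 6 members and lost DUSP6, whose own value of 0.017 had been the median. Over the Cy3 and the Cy5 labellings alone the counts were 2 to 4 in EV cells and 2 in both in sponge cells, the medians of log2 IP/T 0.80 to 1.26 in EV cells and 0.27 to 0.64 in sponge cells, and the changes −0.62 to −0.13 for IP/T and −0.11 to 0.16 for total RNA. The cause of these shifts was not tested, and several settings also kept another set of members. The median change thus turned sign where only 3 members were left, and the IP/T of SPRED2 in sponge cells (log2 −0.75) turned to 0.039 and 0.040 with normexp. No value past 2-fold changed sign. Of the values of single probes 195 moved by less than the spread between orientations and 39 by more. Many of the 195 could not have moved further. A single orientation cannot leave that spread, and a filter leaves a kept value as it is, so the count does not measure stability. Signal over background limits SPRED1, SPRED2, SPRY1, DUSP6, NF1 and RASA1, and SPRY4 gave no value.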

Other observations

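The other genes with several retained probes included PTPN11, the gene of the phosphatase SHP2, which receptors use to keep RAS active and which Sprouty proteins are known to engage. It was chosen after its values were seen. On A_32_P61757, well above background in all channels, the log2 total signals were 11.68 and 11.79 in EV cells and 10.999 and 11.09 in sponge cells, a change of −0.69, and on A_23_P99027 the change was −0.54. On the dimmer A_23_P105436 and A_23_P204090 it was −0.26 and −0.08, with opposite signs in the labellings of the latter. The log2 changes of IP/T on the 4 probes, in this order, were 0.60, 0.34, 0.61 and 0.05, and none reached 2-fold.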
